A study of Mus musculus with 2 samples.

Results

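Forkhead, SOX and T-box genes encode 3 families of DNA-binding transcription factors, and 50 of their genes were followed here in mouse embryonic stem (ES) cells of 2 genotypes, among 13620 genes in the deposited table. Members were the table's genes whose symbol begins with Fox, Sox or Tbx in the form of a numbered family name, together with Eomes. Foxa1, Foxa2, Foxd3, Sox2, Sox3, Sox7 and Sox17 were left out by the same rule, and T (brachyury), which the rule also names, is not analysed here. This gave 29 forkhead, 12 SOX and 9 T-box genes. One of the 29, Foxl2os, is a noncoding RNA gene beside Foxl2 and not a forkhead factor, and it was kept because its name meets the rule. One library of polyadenylated RNA came from wild-type ES cells and 1 from ES cells of genotype Fbxl10 T/T, both of strain C57BL/6J and grown with serum and LIF on inactivated fibroblast feeders that were depleted before use. Fbxl10 is an older symbol of Kdm2b. The labels give neither what the T allele alters nor how many cell lines or clones each genotype stands for. With 1 library per genotype there was no replicate, so no difference was tested, and "higher" and "lower" describe these 2 libraries.

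The forkhead domain is a winged-helix fold, the HMG box of SOX proteins binds the minor groove and bends DNA, and the T-box is a larger domain named after brachyury. All 3 families act mainly in cell fate choice in the embryo, and many of their genes are kept silent in ES cells by Polycomb complexes at CpG-rich promoters. KDM2B, the protein made from Fbxl10, belongs to a variant Polycomb complex and binds unmethylated CpG islands through its CXXC domain. In ES cells the families also include factors of the undifferentiated state and of Nodal, insulin and cell cycle signalling.

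The targeted gene had 2449 reads (102.5 CPM) in wild-type cells and 262 reads (10.6 CPM) in the T/T library. CPM here is the authors' normalised count per 1000000 reads, and the libraries held 21198574 and 27109446 reads in listed genes. ES cell markers were checked first, and 6 of 9 were at least 2-fold lower in Fbxl10 T/T, against 20.6% of all genes. The summed level of the 9 was 5936 CPM against 1893 CPM, wild type first as in all pairs of values below, with none at 0. Their median log2 ratio was -2.73, and Klf4, at 591.1 and 513.7 CPM, differed least of the 9. Of 11 extraembryonic endoderm markers 10 were at least 2-fold higher, against 14.8% of all genes, with a summed level of 6029 and 55760 CPM and none at 0. Of 17 fibroblast markers, which would mark feeder RNA, 3 were lower (17.6%, near the 20.6% of all genes) and none higher. Their summed level was 1083 and 630.4 CPM, with none at 0. The part of these other cell types in the values below was not tested, and in bulk RNA fewer cells of a type cannot be told apart from less RNA per cell.

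Promoter sequences of 4 members are shown because they bear on the CpG-rich regions that KDM2B binds: Foxf2 and Foxc1 are neighbours on chromosome 13 that differed in opposite directions, Foxj2 was higher, and Sox15 had the smallest ratio of all members. Each is the stretch of 250 bases before the RefSeq start site on the gene's own (plus) strand in GRCm38.p6, with CpG dinucleotides in capitals. The windows are chr13:31625566-31625815 for Foxf2, chr13:31806396-31806645 for Foxc1, chr6:122819934-122820183 for Foxj2 and chr11:69654787-69655036 for Sox15.
Foxf2: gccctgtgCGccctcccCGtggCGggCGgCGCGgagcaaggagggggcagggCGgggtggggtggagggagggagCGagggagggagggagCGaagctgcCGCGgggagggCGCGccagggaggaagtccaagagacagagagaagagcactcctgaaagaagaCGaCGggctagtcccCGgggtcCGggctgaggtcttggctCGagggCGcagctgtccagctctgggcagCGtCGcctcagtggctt
Foxc1: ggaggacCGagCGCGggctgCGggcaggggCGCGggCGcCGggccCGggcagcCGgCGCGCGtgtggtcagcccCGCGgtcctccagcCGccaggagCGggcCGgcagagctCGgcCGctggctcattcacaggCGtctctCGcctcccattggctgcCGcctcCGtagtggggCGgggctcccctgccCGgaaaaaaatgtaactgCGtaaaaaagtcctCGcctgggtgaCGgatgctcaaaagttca
Foxj2: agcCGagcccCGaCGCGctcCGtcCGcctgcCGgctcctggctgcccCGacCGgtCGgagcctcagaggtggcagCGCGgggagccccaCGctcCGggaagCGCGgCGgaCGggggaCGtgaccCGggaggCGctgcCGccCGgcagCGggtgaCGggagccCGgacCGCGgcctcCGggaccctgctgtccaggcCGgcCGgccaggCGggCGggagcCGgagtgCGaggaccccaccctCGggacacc
Sox15: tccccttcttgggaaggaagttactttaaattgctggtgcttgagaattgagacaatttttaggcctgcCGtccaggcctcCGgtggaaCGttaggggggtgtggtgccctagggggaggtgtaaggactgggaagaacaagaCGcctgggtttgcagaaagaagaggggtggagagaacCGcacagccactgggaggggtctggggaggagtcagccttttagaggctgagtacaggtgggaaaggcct
The Foxf2 window held 21 CpGs, more than 83.7% of the 32851 RefSeq promoter windows of the same length. Foxc1, which was lower, held 29 CpGs (more than 93.2%), and Foxj2, which was higher, held 36 (more than 97.4%). Sox15 held 5 CpGs (more than 44.4%), against a median of 6 over all windows. Other lower members had windows with more CpGs than that of Sox15, such as Sox12 with 35 and Sox13 with 31. The bases just after the RefSeq start of Sox15 were not found in its GENCODE M21 transcripts, while those of the other 3 genes were. A comparison of CpG content over the families is void, since a promoter was found for 31 of 50 members (62.0%).

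A gene counted as higher or lower when the 2 libraries differed at least 2-fold after 0.5 CPM was added to both values, a step that makes the ratios of low genes look smaller than they are. Only genes that reached 1 CPM in one library or in both entered these counts. Of the 50 members 48 reached this level, and Tbx1 (0.963 and 0.284 CPM) and Tbx5 (0.921 and 0.365 CPM) did not. Over all 13512 genes at this level 14.8% were higher and 20.6% lower. Of 29 forkhead genes 3 were higher, 12 lower and 14 in between, with a median log2 ratio of -0.51. Without Foxl2os 11 of 28 were lower and the median was -0.29. Of 12 SOX genes 11 were lower, 1 lay in between and none was higher, and their median was -1.73. Of 7 T-box genes 3 were lower, 4 lay in between and none was higher, and their median was -0.99. The median over all 13512 genes was 0.02. An exact binomial comparison of the reads, which compares these libraries and not the genotypes, called 11 of the 48 members higher and 30 lower, where it called 42.8% of all genes higher and 40.6% lower.

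Level matters for these shares, because a gene that reached 1 CPM in wild type alone can be lower or in between but not higher. Of the 48 members 15 reached 1 CPM in wild type only, 1 in Fbxl10 T/T only and 32 in both. Among all genes with a mean under 5 CPM over the libraries, 44.7% were lower and 8.25% higher. Among those with a mean of 5 CPM or more, 13.3% were lower and 16.7% higher. At that higher level all 7 SOX genes were lower. Of 17 forkhead genes at that level 4 were lower and 3 higher, and their median was 0.29. Of 3 T-box genes at that level, Eomes was lower and Tbx3 and Tbx15 lay in between. The absence of a higher SOX gene also rests on the rule, since Sox7 (32.9 and 192.9 CPM) and Sox17 (35.8 and 514.7 CPM), both higher, were left out. With the 4 left-out SOX genes put back 13 of 16 were lower and 2 higher, and with the 3 forkhead genes put back 14 of 32 were lower and 4 higher.

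**Figure D1:**
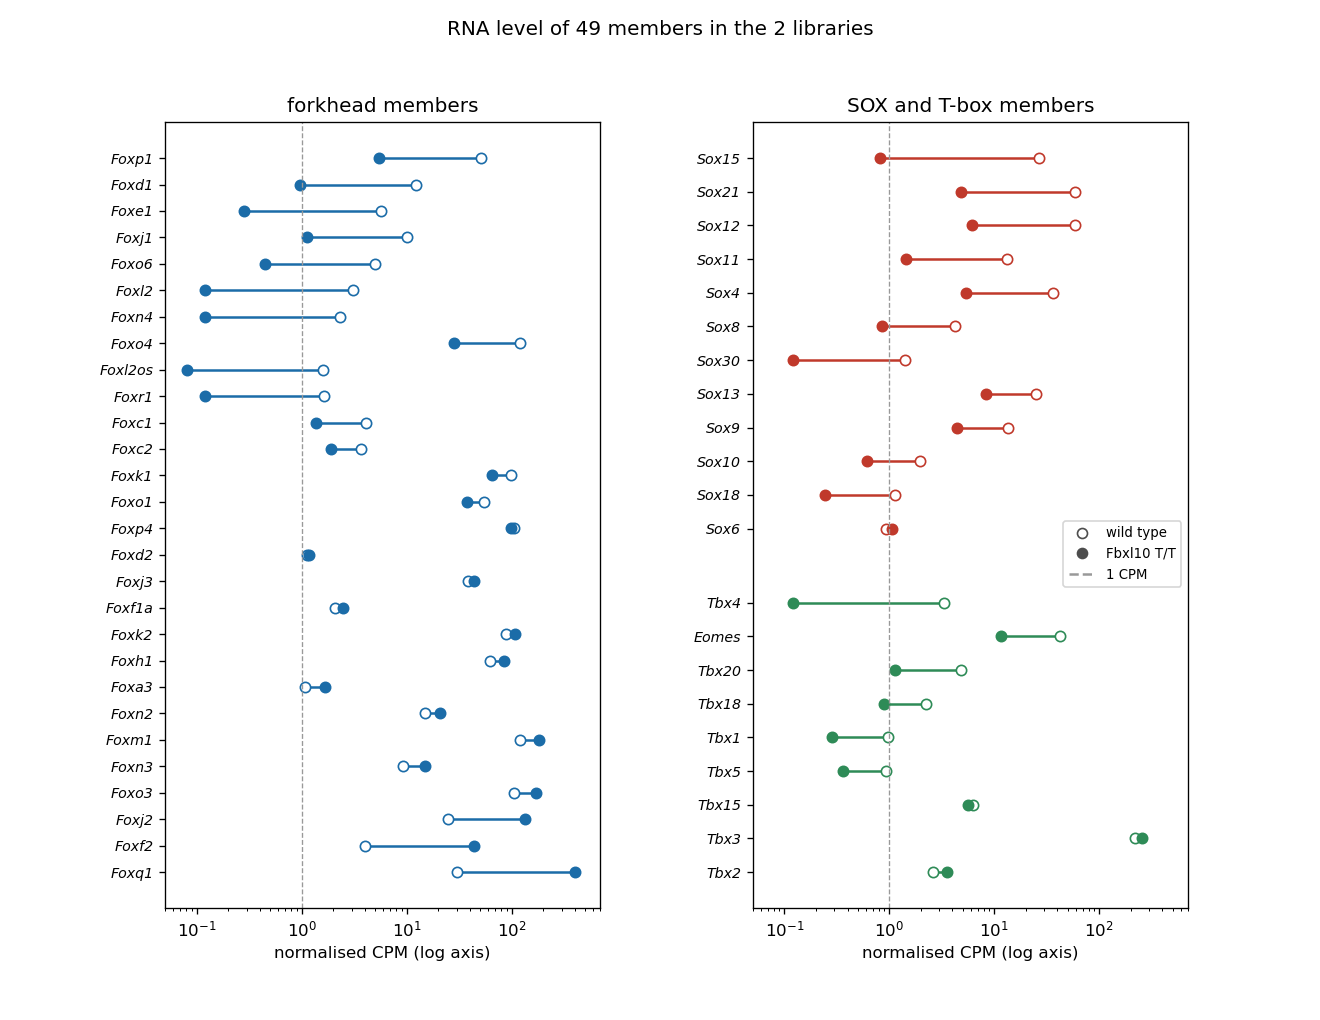
Normalised CPM of 49 of the 50 members on a log axis, 1 row per gene, ordered within each family by ratio; open circles are the wild-type library, filled circles the Fbxl10 T/T library, and the dashed line is 1 CPM. Foxq1, Foxf2 and Foxj2 have the filled circle far to the right, while 11 of 12 SOX rows have it far to the left.

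**Figure D2:**
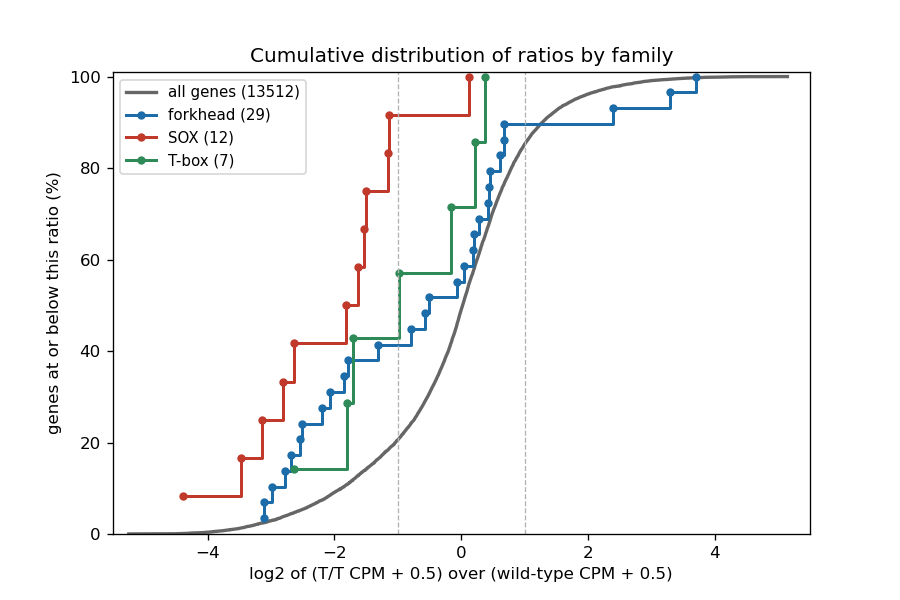
Cumulative share of genes (%) against the log2 ratio of Fbxl10 T/T to wild type for all 13512 genes and for the 29 forkhead, 12 SOX and 7 T-box genes at 1 CPM or more; dashed lines mark 2-fold. The SOX curve lies left of the curve of all genes over its whole length, and the forkhead curve crosses it above the 2-fold line, where 3 genes are higher.

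Foxq1, known for roles in hair shaft formation and mucus-secreting stomach cells, had the largest ratio of all members. It had 724 reads (30.3 CPM) in the wild-type library and 9906 reads (401.3 CPM) in the other. This is 13.2-fold higher, with an exact binomial (Clopper-Pearson) 95% interval of 12.3 to 14.3 that, like all intervals here, covers counting error only. Foxq1 lies on chromosome 13 from 31650306 to 31652331 in mm9. Foxf2, a gene of gut and palate mesenchyme, lies 65.3 kb beyond it, from 31717648 to 31723271. Foxf2 had 96 and 1081 reads (4.02 and 43.8 CPM) and was 10.9-fold higher (8.83 to 13.6). Foxc1, which acts in mesoderm and in eye development, begins 175.2 kb after Foxf2, at 31898515. It had 99 and 34 reads (4.15 and 1.38 CPM) and was 3.01-fold lower (2.02 to 4.58). Thus 2 of these 3 neighbouring forkhead genes were higher and the third was lower, with counting intervals on opposite sides of equality. Gmds, an enzyme gene of GDP-fucose synthesis on the minus strand whose 3′ end lies 8.95 kb beyond Foxc1, was 2.85-fold higher at 13.6 and 38.6 CPM. On the other side of Foxq1 the nearest listed genes were far off, with Exoc2 ending at -584 kb from the start of Foxq1. They were Exoc2, at 29.5 and 30.7 CPM, and Hus1b, at 1.93 and 0.162 CPM.

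**Figure D3:**
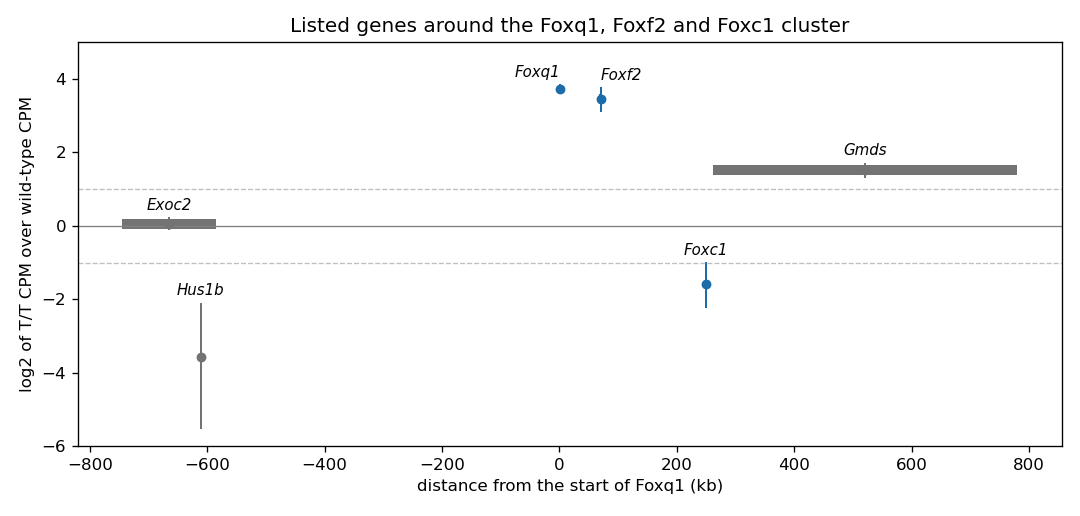
Log2 ratio of Fbxl10 T/T to wild-type CPM for the listed genes around Foxq1 against distance from its start (kb); thick bars span each gene, points mark its middle and vertical lines are the 95% counting intervals. Foxq1 (13.2-fold) and Foxf2 (10.9-fold) lie high, Foxc1 (3.01-fold lower) lies below 0, and Gmds lies above 2-fold.

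Foxj2, a broadly expressed forkhead gene, was the third higher member. It had 595 and 3283 reads (24.9 and 133 CPM) and was 5.34-fold higher (4.89 to 5.83). It lies on chromosome 6 from 122770529 to 122795359 in mm9, and its nearest listed gene, the complement receptor gene C3ar1 at a distance of 2.63 kb, was at 0.754 and 8.43 CPM. The paralogue Foxj3 was at 38.6 and 44.0 CPM. Foxj1, the master regulator of motile cilia, was 8.86-fold lower (5.98 to 13.6), at 10.05 and 1.13 CPM. The 3 FoxJ genes thus divided into a higher, a lower and an intermediate member.

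The FOXO factors, most of which are held outside the nucleus when insulin signalling through PI3K and AKT is active, also divided. Foxo4 had 2850 and 694 reads (119.3 and 28.1 CPM) and was 4.25-fold lower (3.91 to 4.62). Foxo6, known from brain, was 11.2-fold lower (6.03 to 23.0), at 4.98 and 0.446 CPM. Foxo1 was at 54.3 and 37.9 CPM. Foxo3 was at 105.5 and 169.6 CPM, a ratio of 1.61 (1.53 to 1.69) that did not reach 2-fold. Per kb of exon, the scale on which different genes can be compared, Foxo4 was the highest of the 4 in wild-type cells (34.2 CPM per kb, against 13.9 for Foxo3), and Foxo3 was the highest in the other library (22.4 CPM per kb, against 8.07 for Foxo4).

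Several other forkhead genes differed less than 2-fold. Foxm1, which drives mitotic genes, was at 120.1 and 184.4 CPM, a ratio of 1.54 (1.46 to 1.61). Foxh1, the DNA-binding partner of SMAD proteins in Nodal signalling, was at 62.9 and 84.9 CPM. Foxk1 and Foxk2, which bind the deubiquitinase BAP1, were at 97.9 and 65.5 CPM and at 87.6 and 106.8 CPM. Foxp4, a gene of lung and gut epithelium, was at 104.8 and 99.5 CPM, a ratio whose interval includes equality. Foxn2 (15.1 and 20.8 CPM) and Foxn3 (9.21 and 15.1 CPM) were also in between.

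The remaining lower forkhead genes include factors of several organs, and most had few reads in the T/T library. Foxp1, a splice form of which promotes pluripotency, had 1222 and 135 reads (51.2 and 5.47 CPM) and was 9.36-fold lower (7.83 to 11.3). Foxd1, a kidney stroma gene, had 291 and 24 reads and was 12.5-fold lower (8.26 to 19.9). Foxe1, a thyroid gene, had 136 and 7 reads and was 20.1-fold lower (9.49 to 50.9). All 12 lower forkhead genes had counting intervals wholly past 2-fold. By this rule 2428 of all 13512 genes were lower. Foxl2, an ovary gene, had 73 and 3 reads, a ratio of 25.2 (8.27 to 124.8), and Foxl2os, at a distance of 2 kb, had 38 and 2 reads. Foxn4, a retina and spinal cord gene, had 56 and 3 reads, and Foxr1 had 39 and 3 reads. With so few reads left, the size of these ratios is poorly known. The low genes that lay in between were Foxc2 (3.68 and 1.90 CPM), Foxd2 (1.13 and 1.17 CPM), the liver gene Foxa3 (1.09 and 1.66 CPM) and the mesoderm gene Foxf1a, now called Foxf1 (2.09 and 2.47 CPM).

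Of the 12 SOX genes, 11 were lower, and they come from 7 groups of the family. Only 9 of them had counting intervals wholly past 2-fold, which those of Sox10 (1.78 to 6.24) and Sox18 (1.88 to 13.8) were not. With 1 CPM added in place of 0.5 CPM, 9 SOX genes were lower. Sox15, which is expressed in ES cells and can pair with POU5F1 on DNA, had 640 and 20 reads (26.8 and 0.810 CPM). In the T/T library it was at 3.02% of its wild-type level, 33.1-fold lower (21.2 to 54.5). It lies on chromosome 11 from 69468539 to 69470210 in mm9, where its interval meets that of Mpdu1 on the other strand over 6 bases, and Mpdu1 was at 195.6 and 198.8 CPM. Sox21, a group B repressor of neural progenitors, had 1395 and 118 reads (58.4 and 4.78 CPM) and was 12.2-fold lower (10.1 to 14.9). All 3 genes of group C, which act in neural and mesenchymal progenitors, were lower. Sox12 had 1408 and 153 reads (59.0 and 6.20 CPM), 9.51-fold lower (8.05 to 11.3). Sox11 had 316 and 36 reads, 9.07-fold lower (6.42 to 13.2), and Sox4 had 866 and 133 reads, 6.73-fold lower (5.60 to 8.14). Of 6 neural ectoderm markers 4 were lower and none was higher, where 20.6% of all genes were lower. Among these 6, 2 reached 1 CPM in wild type only. Their summed level was 195.5 and 113.1 CPM, and the part of these markers in the SOX values was not tested.

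Groups D and E, which work together in cartilage and in neural crest derivatives, had 4 lower members with ratios from 3.001-fold to 5.02-fold. Sox9, the cartilage and testis factor of group E, was at 13.6 and 4.46 CPM, 3.04-fold lower (2.45 to 3.82). Sox8 of the same group was at 4.27 and 0.851 CPM, 5.02-fold lower (3.12 to 8.46), and Sox10, a neural crest gene, at 1.97 and 0.608 CPM. The value of Sox8 is uncertain, because its interval of 4795 bases lies within that of Lmf1 on the other strand (13.2 and 33.9 CPM) and the strand setting of the counting is not given in the sources used here. Sox13 of group D was at 25.2 and 8.39 CPM, 3.001-fold lower (2.56 to 3.53). Sox6, also of group D, was the single SOX gene in between, with 22 and 26 reads. Sox18, an endothelial gene of group F, had 27 and 6 reads, beside 5 endothelial markers of which 3 were lower and 1 higher (Pecam1 at 73.7 and 3.89 CPM, Cdh5 at 3.94 and 44.2 CPM). Among these 5, 2 reached 1 CPM in wild type only, and over all genes 20.6% were lower and 14.8% higher. The testis gene Sox30 had 34 and 3 reads. The summed level of the 12 SOX genes was 242.1 and 34.4 CPM, 7.05-fold lower, and with the 4 left-out SOX genes it was 844 and 773.7 CPM, 1.09-fold lower.

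Among T-box genes Tbx3, known in ES cells for supporting self-renewal and for promoting extraembryonic endoderm, had 5228 and 6310 reads (218.9 and 255.6 CPM). Its ratio of 1.17 (1.13 to 1.21) was just below 1 after scaling by upper quartiles, and those of Sox6, Foxd2 and Foxj3 changed direction likewise. Eomes, a factor of trophoblast, mesoderm and definitive endoderm, had 1002 and 288 reads (42.0 and 11.7 CPM) and was 3.60-fold lower (3.15 to 4.11). Of 7 trophoblast markers 5 were lower and 2 higher, where 20.6% of all genes were lower. Their median log2 ratio was -3.04, and 4 of the 7 reached 1 CPM in wild type only. Their summed level was 475.4 and 1240 CPM, with none at 0, and its rise comes from the 2 higher markers alone. The part of these markers in the value of Eomes was not tested. Tbx20, a heart gene, had 116 and 28 reads, 4.28-fold lower (2.81 to 6.72). Tbx4, a hindlimb gene, had 80 and 3 reads, a ratio of 27.6 (9.10 to 136.5). Its neighbour Tbx2, at a distance of 44.5 kb on chromosome 11, had 62 and 87 reads, a ratio whose interval includes equality. Tbx3 and Tbx5 lie 149.9 kb apart on chromosome 5, and Tbx5 had 22 and 9 reads. Tbx15 was at 6.32 and 5.59 CPM and Tbx18 at 2.26 and 0.891 CPM, a log2 ratio of -0.99 with the added 0.5 CPM that puts it just inside the range in between. Tbx5 and Tbx3 lie 2.99 and 3.19 Mb from the targeted gene.

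Per kb of exon the order of the members differed between the libraries. The values use exon lengths of GENCODE M21 for 49 members and are approximate, since the annotation used for counting is not given in the sources used here. For some genes this length exceeds the interval in the deposited table, so their level per kb may be understated. Foxq1 has 4.84 kb of exon on this scale, but its interval runs only from 31650306 to 31652331. In wild type the highest levels were those of Foxh1 (46.1 CPM per kb), Foxo4 (34.2), Tbx3 (33.05) and Sox15 (31.1). In Fbxl10 T/T they were those of Foxq1 (82.9 CPM per kb), Foxh1 (62.2), Tbx3 (38.6) and Foxm1 (32.1). With this length Foxq1 was the 15th of the 49 in wild type, at 6.26 CPM per kb, and its true place may be higher. Sox15 was the 25th in Fbxl10 T/T, at 0.941. Foxq1 made up 2.94% and 26.1% of the summed forkhead level per kb, shares that its exon length may understate. Among SOX genes Sox15 made up 38.3% and 10.9%, and in the T/T library Sox13 was the highest with 22.5%. Tbx3 made up 69.0% and 87.0% of the T-box level. The sums over a family therefore rest on a few genes. The summed forkhead level was 985.2 and 1452 CPM, and 954.9 and 1051 CPM without Foxq1. The summed T-box level was 280.3 and 278.5 CPM, and 61.3 and 22.9 CPM without Tbx3.

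**Figure D4:**
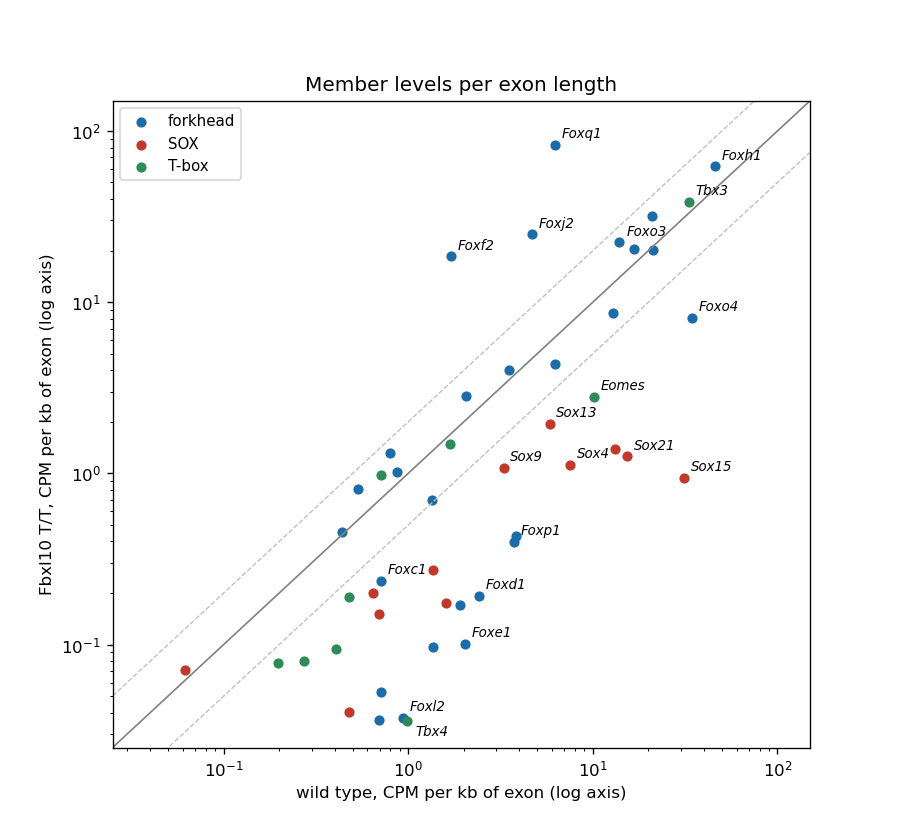
Level of 49 members in CPM per kb of exon, Fbxl10 T/T against wild type, both on log axes; the solid line is equality, dashed lines are 2-fold, and 1 point is 1 gene. Foxq1 stands highest on the vertical axis at 82.9, while Sox15 and Sox21 lie far below the line.

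The nearest listed gene within 50 kb was also looked at. For 18 lower members with such a neighbour, 5 neighbours were lower too and 3 were higher, and Foxl2 and Foxl2os count as each other's neighbour. Over all genes, 30.2% of the neighbours of lower genes were lower and 9.85% higher. The lower share for members, 27.8%, is near that of genes in general, and the higher share, 16.7%, rests on 3 neighbours. The lower pairs included Sox12 with Zcchc3 (99.99 and 8.83 CPM, 13.9 kb away), Foxn4 with the lipid synthesis gene Acacb (25.6 and 4.01 CPM, 3.40 kb away) and Foxo4 with Gm614 (4.15 and 0.648 CPM, 1.68 kb away).

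Genes that work with these factors were described from 9 lists. For FOXH1, 2 of 16 Nodal pathway genes were higher and 4 lower, and the median log2 ratio was 0.28. With 0.5 CPM added, the lowest were the co-receptor gene Tdgf1, at 1128 and 58.0 CPM, and the ligand gene Nodal, at 182.6 and 34.1 CPM, while without it Gsc, at 1.26 and 0.0810 CPM, had a lower ratio than Nodal. Among the higher genes was the signal transducer gene Smad2, at 58.5 and 169.4 CPM. Upstream of the FOXO factors, 4 of 13 PI3K and AKT pathway genes were higher and 1 lower (median 0.48). Sgk3 (1.38 and 5.67 CPM) and Akt1 (166.9 and 426.7 CPM), both kinase genes, were the highest. Of 15 FOXO target genes 4 were lower and 1 higher (median -0.41). Klf2 was at 199.7 and 18.8 CPM and Txnip at 1136 and 271.7 CPM, while Pik3ip1 was at 4.77 and 13.9 CPM.

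Of 12 mitotic targets of FOXM1 1 was lower, Cdc20 at 815.9 and 384.1 CPM, and none was higher, with a median of 0.17. Their summed level was 2129 and 1904 CPM, a fall that rests on Cdc20, while 8 of the 12 were above their wild-type level. Of 7 motile cilium targets of FOXJ1 4 were lower and none higher, and all but 2 of the 7 were under 3 CPM in both libraries. Ccdc40 was at 7.20 and 1.34 CPM, and Rfx2 at 51.3 and 47.9 CPM. Of 13 primitive streak genes that act with T and EOMES 11 were lower and 1 higher (median -2.08). Evx1 was at 8.21 and 0.365 CPM, and Snai1, which promotes loss of epithelial contacts, was the higher gene at 27.6 and 153.8 CPM. Cdx2, Gsc and Lhx1 each stand on another list as well. Of 6 target genes of SOX groups D and E 4 were lower and none higher, with the cartilage genes Col9a2 at 16.6 and 0.608 CPM and Acan at 9.80 and 0.486 CPM. The other 2 were above their wild-type level, but not 2-fold with 0.5 CPM added. Among 4 TCF and LEF genes, whose HMG box is related to that of SOX proteins, Tcf7 (73.7 and 11.5 CPM) and Lef1 (12.8 and 2.03 CPM) were lower, Tcf7l2 (20.015 and 76.2 CPM) was higher and Tcf7l1 was at 126.2 and 134.7 CPM. Mga, a T-box gene outside the naming rule, was at 27.8 and 30.6 CPM. These counts stand against 14.8% higher and 20.6% lower over all genes. Of the 13 primitive streak genes 9 and of the 7 targets of FOXJ1 3 reached 1 CPM in wild type only, and at a mean under 5 CPM 44.7% of all genes were lower.

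**Figure D5:**
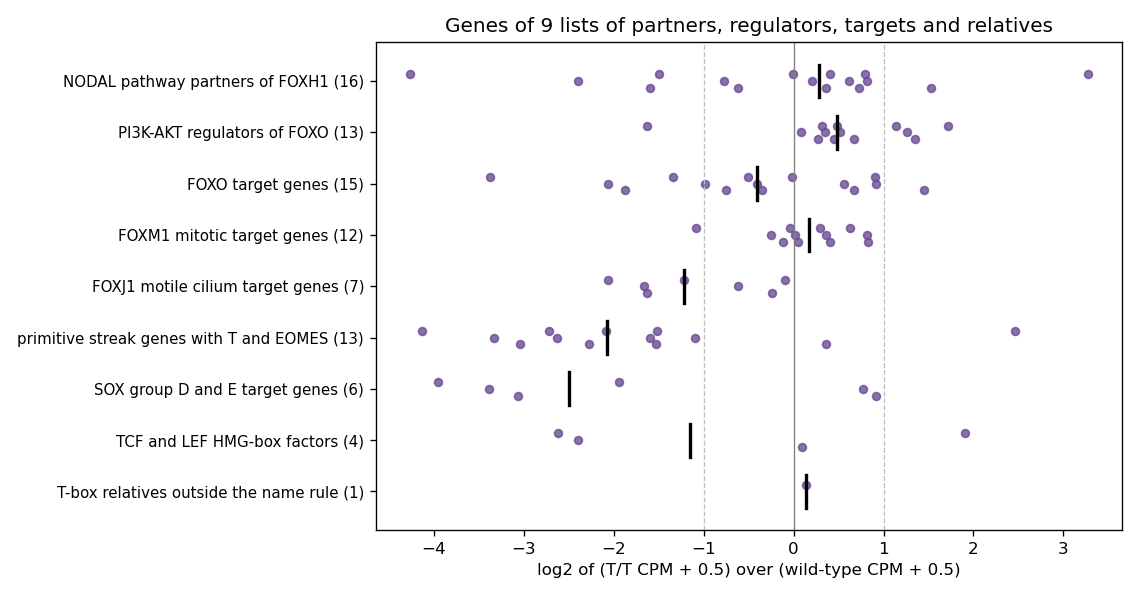
Log2 ratios of Fbxl10 T/T to wild type for genes of the 9 lists at 1 CPM or more, with the number of genes in brackets; each point is a gene, the black bar is the median and dashed lines mark 2-fold. The primitive streak list has 11 of 13 points left of the lower line, and the mitotic targets of FOXM1 lie almost wholly between the lines.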

How the data were processed

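Polyadenylated RNA of 1 wild-type and 1 Fbxl10 T/T ES cell library was compared. Per the submitters' processing notes, TopHat 1.4.1, HTSeq 0.5.3p9 and edgeR were used with build mm9, and what each tool was used for is not given in the sources used here. Deposited by the authors were a normalised signal per library, in CPM, and a log2 ratio with wild type as the numerator. All values (100%, within 0.01 reads) were whole multiples of a fixed step, which gave back the reads. A single read equalled 0.0419 CPM (wild type) or 0.0405 CPM (T/T), and the limit of 3 reads that a count of 0 allows equalled 0.126 and 0.122 CPM. Listed genes had at least 22 wild-type or 28 T/T reads. The table had 24706 rows, and 11086 repeats were dropped. In 20 members that reached 5 CPM in each library, the authors' log2 ratio and the one computed here lay within 0.0024 of each other.

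Ratios, exact 95% intervals, exon lengths and neighbours were computed with Python 3.11.15, numpy 2.4.6, pandas 2.3.3 and scipy 1.17.1, and figures with matplotlib 3.10.9. With 1 library per genotype nothing was tested between genotypes. The two-sided exact binomial comparison of reads used Benjamini-Hochberg adjustment at 0.05 and called 5780 genes higher and 5489 lower of 13512. The calculations were checked on simulated reads drawn with counting error only, so that check does not cover variation between cultures. Members, lists and rules were chosen with earlier results of these data known, so no pattern is independent support. By the naming rule all members could be named, of each list the 2 largest and 2 smallest ratios, and the gene nearest to a member. Values of 1 member and of 3 genes of the lists are not reported here, though they remain in the counts, medians and sums. Exoc2 and Hus1b were named after their values were seen. Promoters are from RefSeq (GRCm38.p6), and their coordinates were not mixed with those of mm9. PCR copies are not independent molecules. Alternatives were another pseudocount, minimum, scaling and fold threshold.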

Additional observations from a re-analysis of the deposited data

How the results depend on the processing

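No paired analysis was possible because each genotype had a single library, which also means that none could be left out. With a pseudocount of 0.1 CPM the SOX median moved to -2.46. Dividing the Fbxl10 T/T values by the common upper quartile factor (0.24 on the log2 scale) moved the forkhead median to -0.75. The same scaling put the median of all genes at -0.21, with 3254 lower and 1438 higher genes of 13484. The factor from medians of all genes was 0.025. A minimum of 5 CPM in 1 library, which keeps fewer genes, left 1737 lower genes of 10986 (15.8%). Lower were 6 of 19 forkhead, 7 of 7 SOX and 1 of 3 T-box genes, with medians of 0.18, -2.81 and -0.16. A minimum mean of 5 CPM, chosen after seeing the data, left 1384 lower genes of 10386 (13.3%). Here 4 of 17 forkhead, 7 of 7 SOX and 1 of 3 T-box genes were lower, with medians of 0.29, -2.81 and -0.16. Both settings turned the sign of the forkhead median, which was under 2-fold. At 1.5-fold 3582 of 13512 genes and 6 of 29 forkhead genes were higher. At 4-fold 519 of 13512 genes were higher and 1229 lower. Of 29 forkhead genes 9 were then lower and 3 higher, and 5 of 12 SOX and 1 of 7 T-box genes were lower. Added after seeing the data, the left-out genes gave 2 higher SOX genes, and dropping Foxl2os moved the forkhead median to -0.29. Of 117 summary values under an alternative 93 stayed within 1.5 times for counts or within a counting interval for medians. That interval, with 0.5 CPM added, belongs to the gene or genes in the middle of the ranking and not to the median itself. It ran from -0.28 to 0.34 for all genes, so shifts of all genes inside it count as unmoved. Of 192 single-gene ratios under an alternative 36 left their counting interval. This is the interval taken with 0.5 CPM added, not the one printed with the ratios above. None of the ratios past 2-fold changed sign. Members under about 10 reads in Fbxl10 T/T have ratios of poorly known size.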

Other observations

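A listed gene without a symbol in the table (ENSMUSG00000055874), which GENCODE M21 names Foxi3, was outside the rule. It had 203 and 9 reads in the wild-type and T/T libraries (8.5 and 0.365 CPM) and was 23.3-fold lower (12.04 to 51.7).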
